A study of Rattus norvegicus with 120 samples.

Results

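The integrin and laminin genes of the rat were examined in kidney and heart. They were taken by symbol, as the numbered or lettered Itga and Itgb subunits and the Lama, Lamb and Lamc chains, with no measured value used, and they number 37 of the 30560 genes in the deposited tables. They comprise 18 integrin alpha subunits, 8 integrin beta subunits and 11 laminin chains. Poly-A RNA of 120 tissue samples from ZSF1 rats aged 30 weeks had been sequenced, in 12 groups of 10, with vehicle or compounds given in the chow. In study A, obese rats received BT2, an inhibitor of the branched-chain ketoacid dehydrogenase kinase, or vehicle, and lean rats received vehicle. In study B, obese rats received BT2 together with empagliflozin, empagliflozin alone, which inhibits the glucose transporter SGLT2, or vehicle. Each study gave a kidney and a heart set, lean rats stood in study A alone, and all compounds were tested in obese animals alone. The labels call the renal samples kidney, and the series text names whole kidney and kidney cortex. The obese ZSF1 rat is a hybrid strain without a working leptin receptor that develops diabetes, kidney disease and a stiff heart, so obesity cannot be told apart from these diseases here.

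Integrins are receptors made of an alpha and a beta subunit that tie cells to the surrounding matrix or to other cells. Laminins are trimers of an alpha, a beta and a gamma chain, and they are the main adhesive protein of basement membranes, the sheets beneath epithelia and around muscle fibres. In the kidney, Itga3 with Itgb1 anchors podocytes to the laminin of the glomerular filter, whose mature trimer holds Lama5 and Lamb2, and Itga8 with Itgb1 binds nephronectin during kidney development. In the heart, Itga7 with Itgb1 and laminin with Lama2 hold cardiomyocytes to their basement membrane. Itgb2 pairs with Itgal, Itgam, Itgax or Itgad on leukocytes. Because RNA came from whole tissue pieces, fewer cells of a type and less RNA per cell cannot be told apart.

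Promoters are shown for 3 members that were higher in obese than in lean kidneys, since 2 of them, Itgam and Itgax, also fell with BT2 and with the combination. The sequences are the 250 bases before the gene start in the RefSeq table for build GRCr8, 5′ to 3′ on the gene's strand. Itgam lies at chr1:192089342-192089591, Itgax at chr1:192149799-192150048 and Lamb3 at chr13:107362303-107362552, all on the plus strand. Capitals mark matches on either strand to the AP-1 motif TGANTCA, the GC box GGGCGG and the core GAGGAA of the myeloid factor PU.1, and no printed match overlaps another.
Itgam: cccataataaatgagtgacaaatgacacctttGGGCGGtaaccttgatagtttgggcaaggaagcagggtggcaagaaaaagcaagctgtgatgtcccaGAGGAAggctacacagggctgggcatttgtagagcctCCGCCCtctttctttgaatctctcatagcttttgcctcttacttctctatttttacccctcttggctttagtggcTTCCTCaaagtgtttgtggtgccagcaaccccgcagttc
Itgax: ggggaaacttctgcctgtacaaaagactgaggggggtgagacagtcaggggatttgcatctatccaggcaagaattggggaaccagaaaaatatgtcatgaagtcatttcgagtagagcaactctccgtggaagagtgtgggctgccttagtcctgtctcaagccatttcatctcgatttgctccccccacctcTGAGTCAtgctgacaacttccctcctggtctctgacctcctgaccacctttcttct
Lamb3: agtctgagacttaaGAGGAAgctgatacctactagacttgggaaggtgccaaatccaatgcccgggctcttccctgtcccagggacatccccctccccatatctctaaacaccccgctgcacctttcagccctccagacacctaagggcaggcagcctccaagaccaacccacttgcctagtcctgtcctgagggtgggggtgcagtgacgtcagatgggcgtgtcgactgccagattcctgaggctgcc
The Itgam promoter held 2 GC boxes and 2 PU.1 cores, the Itgax promoter held 1 AP-1 motif, and the Lamb3 promoter held 1 PU.1 core. The table held promoters for 28 members, of which 2 had an AP-1 motif, 14 a GC box and 11 a PU.1 core. Of the 27457 promoters in the table, 6.36% had an AP-1 motif, 32.4% a GC box and 23.2% a PU.1 core. These matches describe letters and were not tested as binding sites.

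The median depth was 10.1 M counts in kidney (M, counts divided by 1000000) and 12.2 M in heart, where libraries lay between 6.74 and 23.6 M. The labels place replicates 1 to 5 on plate 1 and 6 to 10 on plate 2. The kidney libraries BT2 replicate 2 (0.0228 M) and study B vehicle replicate 8 (0.776 M) entered the tests but not the levels, so these groups have n = 9 for levels. Levels are in CPM, counts scaled to 1000000 per library, with TMM factors computed within each organ, and are compared for 1 gene at a time, since transcript length differs between genes. The summed level of 9 cardiomyocyte markers was 36644 to 71184 CPM in hearts and that of 10 proximal tubule markers was 4594 to 17846 CPM in kidneys. Lean kidney replicate 8 stood apart, with 38565 CPM of skeletal muscle markers against a lean median of 119 CPM, and 4013 CPM of injured tubule markers against a lean median of 683 CPM. Libraries were screened by Actc1 and Alb in kidney and by Myl7 and Myh4 in heart. In all, 6 kidney and 11 heart libraries carried transcripts of another tissue (muscle, liver or atrium), 4 of them kidneys of the combination group. Counts of called members are also given without them where they changed a call. For the marker and partner lists such counts are given in some comparisons only. The screen left in lean heart replicate 8, with 122 CPM of distal nephron and collecting duct markers against a lean heart median of 27.8 CPM. It also left in obese vehicle kidney replicate 4 of study A, with 1887 CPM of skeletal muscle markers against a group median of 81.6 CPM. Of the 37 members, Itga10 fell below the count filter in every comparison, with group medians of 0.211 to 0.720 CPM.

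In kidneys of obese vehicle rats, 14 of 35 tested members were higher and 2 lower than in kidneys of lean vehicle rats, where 32.0% of all 14230 tested genes were called in either direction, 16.9% higher and 15.2% lower (edgeR quasi-likelihood test, adjusted p under 0.05, as throughout). The called share of members was 45.7%. The median log2 fold change was 0.25 over the members and -0.02 over all genes. The higher members fell into epithelial laminin and integrin chains, leukocyte integrins and receptors of the Itgav and Itgb1 type. Within plates, 22 of 35 members were called on plate 1, where 29.5% of all genes were called, and 8 of 36 on plate 2, where 6.72% were called. Without lean replicate 8, which the authors' deposited comparison also leaves out, 18 members were higher and 3 lower, and 38.1% of all genes were called.

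Among laminins, Lamb3, a beta chain that joins Lama3 in the laminin of epithelial anchoring sites, was higher in obese kidneys. Lamb3 had 7.45, 12.0 and 34.4 CPM (lowest, median and highest library) in obese vehicle kidneys, against 1.90, 3.21 and 8.71 CPM in lean kidneys. Its log2 fold change was 1.86 ± 0.32 (SE, adjusted p = 0.000132). In 9 of 10 obese kidneys Lamb3 lay above every lean kidney, and the highest lean library was replicate 8. Its partner chain Lama3 showed no such shift, with 5.70, 9.07 and 14.0 CPM in obese vehicle kidneys and 6.75, 9.05 and 14.7 CPM in lean kidneys (log2 fold change -0.05 ± 0.15, adjusted p = 0.840). Lamb1, a chain of most embryonic and vascular laminins, was higher by 0.19 ± 0.05 on the log2 scale (adjusted p = 0.00858).

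The alpha and beta chains of the mature glomerular filter, Lama5 and Lamb2, did not pass the test. Lama5 had 70.6, 105 and 151 CPM in obese vehicle kidneys and 75.5, 104 and 128 CPM in lean kidneys (log2 fold change 0.12 ± 0.14, adjusted p = 0.550). Lamb2 had 106, 168 and 257 CPM in obese vehicle kidneys and 123, 166 and 240.4 CPM in lean kidneys (log2 fold change 0.02 ± 0.14, adjusted p = 0.930). The obese kidneys spread more widely than the lean ones for both chains. Beside these values, 4 of 7 tested podocyte markers were lower in obese kidneys, with a summed level of 252 to 544 CPM in obese vehicle kidneys and 466 to 597 CPM in lean kidneys. Lama4 (log2 fold change 0.06), Lamc1 (0.25) and Lamc3 (-0.32) did not pass with all libraries, but without lean replicate 8 Lama4 (0.33, adjusted p = 0.00734) and Lamc1 (0.34, adjusted p = 0.000852) were higher and Lamc3 (-0.41, adjusted p = 0.00694) was lower.

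Laminin-binding integrins moved in both directions. Itgb4, the beta subunit of hemidesmosomes, which with Itga6 binds laminin, had 21.4, 36.7 and 59.4 CPM in obese vehicle kidneys, against 8.19, 12.3 and 21.3 CPM in lean kidneys. All 10 obese kidneys exceeded every lean kidney, and the log2 fold change was 1.46 ± 0.19 (adjusted p = 7.58e-06). Its partner Itga6 was lower, with 123, 173 and 264 CPM in obese vehicle kidneys, against 164, 227 and 346 CPM in lean kidneys (log2 fold change -0.36 ± 0.11, adjusted p = 0.0172). The groups overlapped for Itga6, with 4 obese kidneys below every lean one. Itga3, the podocyte and tubule laminin receptor subunit, had 83.9, 98.8 and 131 CPM in obese vehicle kidneys, against 50.2, 69.9 and 81.5 CPM in lean kidneys, with no overlap (log2 fold change 0.59 ± 0.09, adjusted p = 7.05e-05). Itgb1, the common beta subunit, had 312, 417 and 478 CPM in obese vehicle kidneys, against 314, 352 and 392 CPM in lean kidneys, with overlapping groups (log2 fold change 0.21 ± 0.06, adjusted p = 0.0147). Itga7 was at -0.43 ± 0.18 (adjusted p = 0.0728), with 49.7 CPM in lean replicate 8 against 9.93 to 19.4 CPM in the other lean kidneys. In the authors' deposited comparison, which leaves that library out, Itga7 was at -0.19. That value comes from another fit, so the library and the way of estimating cannot be told apart in it.

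Of the leukocyte integrins, Itgam, Itgb2, Itgax, Itgb7 and Itgal were higher in obese kidneys. Itgam, the alpha subunit of the complement receptor of macrophages and neutrophils, had 6.92, 11.7 and 16.8 CPM in obese vehicle kidneys, against 1.64, 3.21 and 6.97 CPM in lean kidneys. In 9 of 10 obese kidneys Itgam exceeded every lean kidney. Its log2 fold change was 1.72 ± 0.22 (adjusted p = 7.18e-06), and 2.00 without lean replicate 8, the highest lean library. Itgb2, the beta subunit these receptors share, had 18.3, 26.4 and 33.3 CPM in obese vehicle kidneys, against 12.3, 13.8 and 18.5 CPM in lean kidneys (log2 fold change 0.88 ± 0.10, adjusted p = 2.92e-06). Itgax, found on dendritic cells and macrophages, had 14.0, 17.8 and 21.2 CPM in obese vehicle kidneys, against 7.70, 10.4 and 12.3 CPM in lean kidneys, with no overlap (log2 fold change 0.73 ± 0.09, adjusted p = 4.43e-06). Itgb7, of gut-homing lymphocytes, was higher by 1.44 ± 0.30 (adjusted p = 0.000819), and Itgal, of all leukocytes, by 0.80 ± 0.17 (adjusted p = 0.000991). Itgae, the partner of Itgb7 on intraepithelial lymphocytes, was at 0.21 ± 0.14 (adjusted p = 0.291), and at 0.33 (adjusted p = 0.0274) without lean replicate 8. Beside this, 12 of 14 tested macrophage markers were higher, with summed levels of 1133 to 1469 CPM in obese vehicle kidneys and 423 to 1032 CPM in lean kidneys. Of 8 tested lymphocyte markers 6 were higher, with 22.1 to 34.5 CPM in obese vehicle kidneys and 9.42 to 20.9 CPM in lean kidneys. Every macrophage marker of the list was detected, and so were 12 of 13 lymphocyte markers, the other having no entry. Their part in the integrin values was not tested.

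Receptors for fibronectin, vitronectin and collagen made up the rest. Itgav, the alpha subunit that pairs with Itgb3, Itgb5, Itgb6 and Itgb8, had 148, 187 and 243 CPM in obese vehicle kidneys, against 113, 136 and 149 CPM in lean kidneys. In 9 of 10 obese kidneys Itgav exceeded every lean kidney (log2 fold change 0.49 ± 0.06, adjusted p = 4.76e-06). Of its partners, Itgb3 was higher by 0.52 ± 0.18 (adjusted p = 0.0319). Itgb6, which activates latent TGF-beta in epithelia, had 52.6, 61.2 and 70.7 CPM in obese vehicle kidneys and 45.9, 57.6 and 63.4 CPM in lean kidneys (0.13 ± 0.06, adjusted p = 0.0969). Itgb5 was at 0.04 and Itgb8 at -0.46 on the log2 scale, neither past the test (adjusted p = 0.732 and 0.0584). Itga8, of mesangial and interstitial cells, had 9.07, 17.3 and 22.6 CPM in obese vehicle kidneys and 8.99, 15.0 and 19.7 CPM in lean kidneys (0.17 ± 0.13, adjusted p = 0.370). Itga11, a collagen receptor of fibroblasts, was higher by 0.92 ± 0.20 (adjusted p = 0.00153), beside 3 of 8 tested fibroblast markers that were higher. Itga2b, the platelet fibrinogen receptor subunit, was lower (-0.40 ± 0.12, adjusted p = 0.0135). Itga5, the fibronectin receptor subunit, was at 0.34 (adjusted p = 0.0953), and at 0.54 (adjusted p = 2.72e-05) without lean replicate 8, which had 25.6 CPM against 9.53 to 12.5 CPM in the other lean kidneys. Not called either were the collagen receptor subunits Itga1 (0.31) and Itga2 (0.54), the leukocyte subunit Itga4 (0.32), Itga9 (0.21), the muscle laminin chain Lama2 (-0.38) and Lama1 (0.32). For Lama2, lean replicate 8 had 78.6 CPM against 40.5 to 51.2 CPM in the other lean kidneys.

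The ligands of these receptors were higher as well. Of 22 tested integrin ligands outside the laminins 17 were higher in obese kidneys and 0 lower, with a median log2 fold change of 0.98. Fga (1.65 ± 0.16, adjusted p = 2.54e-07), a fibrinogen chain, Fn1 (1.45 ± 0.12, adjusted p = 9.18e-08), fibronectin, and Icam1 (0.97 ± 0.09, adjusted p = 3.37e-07), the ligand of Itgb2 receptors, were among them. Without lean replicate 8 the ligand count was 18 higher and 0 lower. Of 20 tested basement membrane partners of laminin 11 were higher and 4 lower. Col4a1 (0.89 ± 0.10, adjusted p = 1.36e-06) was higher and Col4a3 (-0.72 ± 0.12, adjusted p = 0.000112), a chain of the glomerular collagen network, was lower. Of 30 tested genes of the adhesion machinery inside the cell 12 were higher and 3 lower, led by Actn1 (0.93 ± 0.09, adjusted p = 2.01e-07) and Fermt3 (0.97 ± 0.11, adjusted p = 2.36e-06), the kindlin of blood cells, and without lean replicate 8 these were 15 higher and 2 lower. All 10 tested injured tubule markers were higher in obese kidneys, with 4106 to 9240 CPM in obese vehicle kidneys and 558 to 4013 CPM in lean kidneys.

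**Figure D1:**
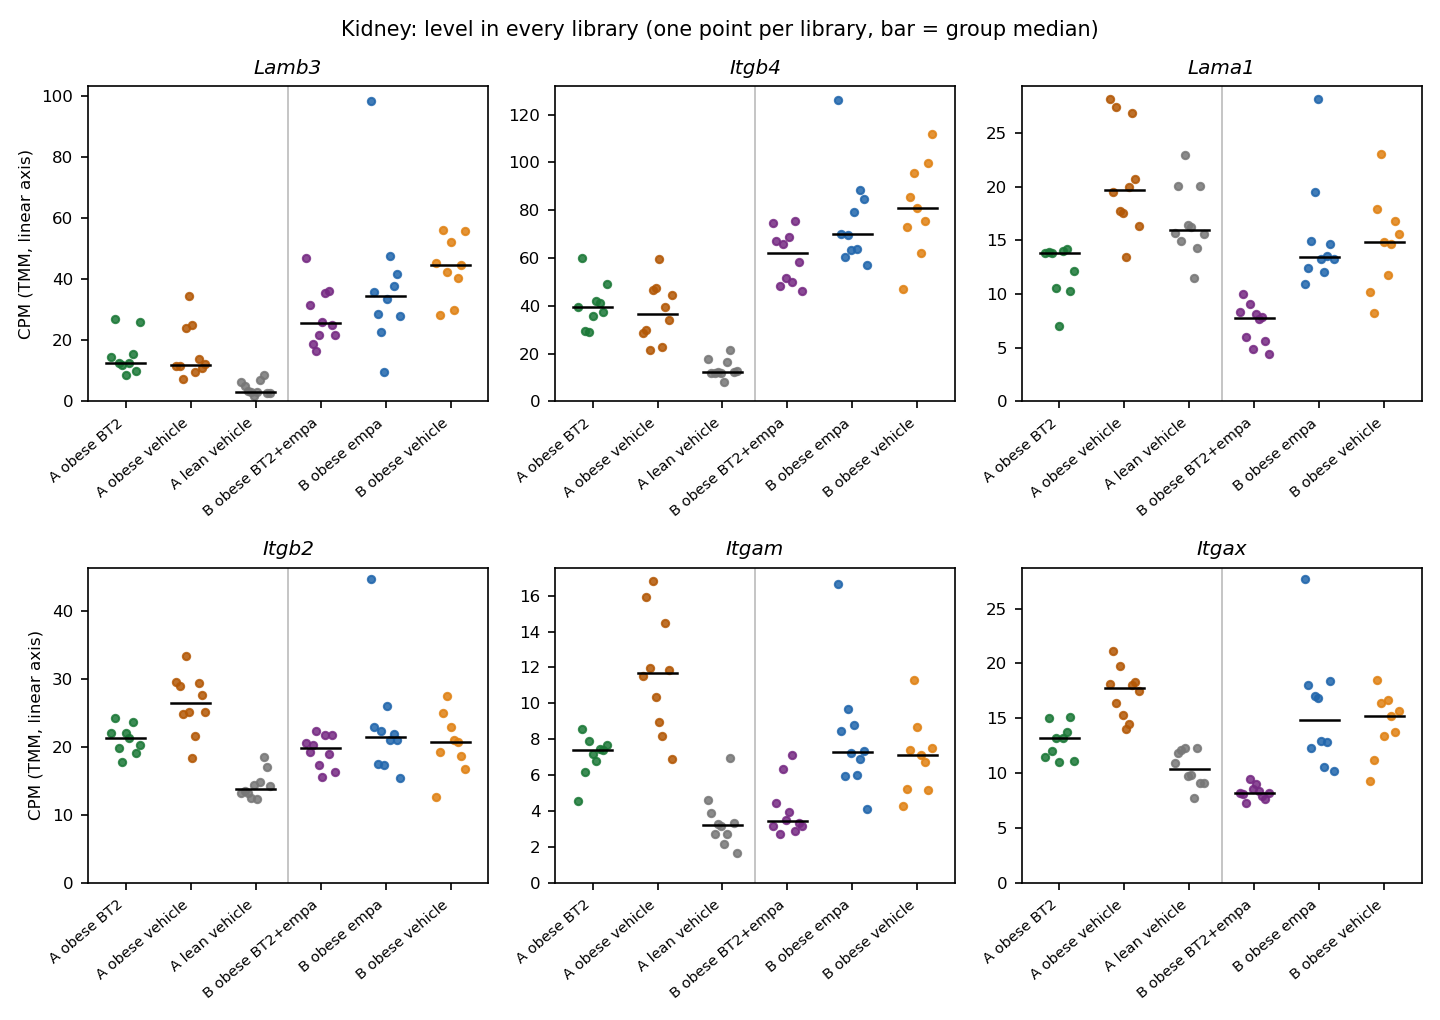
Level of 6 members in every kidney library, in CPM on a linear axis from 0, for study A (BT2, obese vehicle, lean vehicle) and study B (BT2+empa is the combination, empa is empagliflozin), with 1 point per library and a bar at the group median. Lamb3, Itgb4 and Itgb2 sit higher in obese vehicle than in lean kidneys of study A, and Lama1, Itgam and Itgax sit lower in the combination group than in study B vehicle, with Lama1 medians of 7.78 and 14.9 CPM.

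BT2 alone changed 6 of 36 tested members in the kidney relative to obese vehicle in study A, 2 higher and 4 lower, where 5.67% of all 14311 tested genes were called, 2.26% higher and 3.41% lower. The members called were 16.7% of those tested. Neither plate alone called a member (0 of 35 on plate 1 and 0 of 36 on plate 2, with 0.753% and 0.483% of all genes called), where 12 and 7 members had an unadjusted p under 0.05. Without the shallow BT2 replicate 2, Itgb2 was also called lower (-0.30, adjusted p = 0.0490), and 8.21% of all genes were called. Lama1, Itgam and Itgax kept the call with no low-count filter and with no plate term. Itga6 (adjusted p = 0.0648 with no filter and 0.118 with no plate term), Itgb5 (0.0549 and 0.0819) and Itga2b (0.0574 and 0.0848) lost it under both.

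Lama1, the laminin alpha chain of tubular and embryonic basement membranes, had 7.01, 13.8 and 14.2 CPM in BT2 kidneys, against 13.4, 19.7 and 28.1 CPM in obese vehicle kidneys. All 9 BT2 kidneys lay below the vehicle median (log2 fold change -0.76 ± 0.14, adjusted p = 0.00255). Itga6, the laminin receptor subunit, had 101, 142 and 172 CPM in BT2 kidneys, against 123, 173 and 264 CPM in obese vehicle kidneys (-0.42 ± 0.12, adjusted p = 0.0498). Itgam had 4.58, 7.40 and 8.55 CPM in BT2 kidneys, against 6.92, 11.7 and 16.8 CPM in obese vehicle kidneys (-0.70 ± 0.15, adjusted p = 0.00805). For Itgax, 7 of 9 BT2 kidneys lay below every vehicle kidney, with 11.01, 13.2 and 15.1 CPM in BT2 kidneys, against 14.0, 17.8 and 21.2 CPM in obese vehicle kidneys (-0.42 ± 0.09, adjusted p = 0.00968). Beside these, 2 of 14 tested macrophage markers were lower, with summed levels of 741 to 1057 CPM in BT2 kidneys and 1133 to 1469 CPM in obese vehicle kidneys, and 4 of 14 were lower without BT2 replicate 2. Of 9 tested lymphocyte markers 3 were lower, with 19.5 to 27.0 CPM in BT2 kidneys and 22.1 to 34.5 CPM in obese vehicle kidneys. The part of both lists in the result was not tested.

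The members called higher with BT2 were Itgb5 and Itga2b. Itgb5, the vitronectin receptor subunit of tubule cells, had 121, 162 and 198 CPM in BT2 kidneys, against 99.97, 128 and 149 CPM in obese vehicle kidneys (0.32 ± 0.09, adjusted p = 0.0459). Itga2b had 16.1, 20.2 and 26.9 CPM in BT2 kidneys, against 11.8, 16.1 and 22.6 CPM in obese vehicle kidneys (0.39 ± 0.11, adjusted p = 0.0449). The groups overlapped for both genes. Beside them, 3 of 9 tested markers of the distal nephron and collecting duct were higher, and 8 of 9 without BT2 replicate 2. These summed to 6175 to 7891 CPM in BT2 kidneys and 4600.3 to 7180 CPM in obese vehicle kidneys, and their part was not tested. The epithelial chains Lamb3 (-0.05 ± 0.27) and Itgb4 (0.10 ± 0.18) did not pass the test with BT2, with adjusted p-values of 0.941 and 0.750. The members not called with BT2 ranged between -0.61 for Itga4 and 0.32 for Lamb2. The obese over lean and BT2 over vehicle comparisons share the study A vehicle kidneys.

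Empagliflozin alone changed 0 of 34 tested members in the kidney by edgeR, where 1.06% of all 14059 tested genes were called. At an unadjusted p under 0.05 there were 7 members, and DESeq2 called 3, all higher, where it called 4.43% of all genes. Neither plate alone called a member (0 of 35 on plate 1 and 0 of 33 on plate 2, with 0.0141% and 0.15% of all genes called). The smallest adjusted p was that of Itgb6, which had 27.6, 39.7 and 81.8 CPM in empagliflozin kidneys, against 23.2, 31.2 and 39.7 CPM in study B vehicle kidneys (0.57 ± 0.15, adjusted p = 0.0609). Empagliflozin replicate 1 had 615 CPM of lymphocyte markers against a group median of 42.8 CPM, and it was the highest library for Itgax. The 34 members ranged between -0.27 for Itga2b and 0.57 for Itgb6 with all libraries. Without replicate 1, Itgb6 was called (0.62, adjusted p = 0.0404), and 1.08% of all genes were.

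The combination changed 16 of 32 tested members in the kidney relative to study B vehicle, 4 higher and 12 lower, where 32.1% of all 14037 tested genes were called, 17.3% higher and 14.8% lower. The median log2 fold change was -0.19 over the members and 0.01 over all genes. Without the 4 combination libraries that held transcripts of another tissue, 4 members were higher and 10 lower, and 25.4% of all genes were called. Within plates, 8 of 34 members were called on plate 1 (17.5% of all genes) and 10 of 32 on plate 2 (12.4% of all genes).

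Among laminins, Lama1 and Lamb3 were lower with the combination. Lama1 had 4.39, 7.78 and 10.0 CPM in combination kidneys, against 8.21, 14.9 and 23.1 CPM in vehicle kidneys (log2 fold change -1.01 ± 0.18, adjusted p = 0.000127). In 7 of 10 combination kidneys Lama1 lay below every vehicle kidney. Lamb3 was lower (-0.64 ± 0.17, adjusted p = 0.00656), and so was the laminin receptor subunit Itgb4 (-0.43 ± 0.13, adjusted p = 0.0119). Injured tubule markers were lower for 7 of 10 tested, with 3435 to 6215 CPM in combination kidneys and 5989 to 12723 CPM in vehicle kidneys, and their part was not tested. Members not called ranged between -0.52 for Itga11 and 0.21 for Lama5. The filter chains Lama5 (0.21, adjusted p = 0.0973) and Lamb2 (0.12, adjusted p = 0.408) did not pass.

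Among integrins that bind laminin, Itga3 (-0.36 ± 0.09, adjusted p = 0.00467) and Itga6 (-0.26 ± 0.07, adjusted p = 0.00552) were lower and Itga7 was higher. Itga7 had 15.5, 19.6 and 26.2 CPM in combination kidneys, against 10.6, 12.6 and 17.8 CPM in vehicle kidneys (0.57 ± 0.10, adjusted p = 0.000127). All 10 combination kidneys exceeded the vehicle median for Itga7. Combination replicate 7 held 1493 CPM of cardiomyocyte markers against a group median of 13.9 CPM. Without the other-tissue libraries Itga7 was at 0.53 (adjusted p = 0.00335).

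Of the leukocyte integrins tested, Itgax, Itgam, Itgb7, Itgal and Itgae were lower with the combination and Itgb2 did not pass, while Itga4 and Itgad were not tested. Itgax had 7.29, 8.20 and 9.43 CPM in combination kidneys, against 9.32, 15.2 and 18.5 CPM in vehicle kidneys (-0.86 ± 0.12, adjusted p = 1.12e-05), and 9 of 10 combination kidneys lay below every vehicle kidney. Itgam (-0.81 ± 0.21, adjusted p = 0.00449), Itgb7 (-0.77 ± 0.23, adjusted p = 0.0117), Itgal (-0.60 ± 0.16, adjusted p = 0.00521) and Itgae (-0.42 ± 0.12, adjusted p = 0.0109) were lower too. Itgal (adjusted p = 0.0544) and Itgae (adjusted p = 0.0690) lost the call without the other-tissue libraries. Itgb2 had 15.6, 19.8 and 22.3 CPM in combination kidneys and 12.6, 20.6 and 27.4 CPM in vehicle kidneys (-0.07 ± 0.11, adjusted p = 0.674). Macrophage markers were lower for 12 of 13 tested, with 434 to 715 CPM in combination kidneys and 684 to 1455 CPM in vehicle kidneys, and lymphocyte markers for 5 of 9 (3 of 9 without the other-tissue libraries), with 16.3 to 46.4 CPM in combination kidneys and 23.2 to 48.5 CPM in vehicle kidneys. Their part in the integrin values was not tested.

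The remaining called members were Itgb8, Itga2b and Itgav, which were higher, and Itga5, which was lower (-0.50 ± 0.11, adjusted p = 0.00134). Itgb8, which with Itgav activates latent TGF-beta, had 16.6, 25.4 and 45.2 CPM in combination kidneys, against 10.4, 14.8 and 19.2 CPM in vehicle kidneys (0.94 ± 0.14, adjusted p = 2.19e-05). Itga2b had 27.2, 34.2 and 43.4 CPM in combination kidneys, against 15.1, 19.2 and 25.0 CPM in vehicle kidneys, with no overlap (0.74 ± 0.09, adjusted p = 1.04e-06). Itgav had 117, 152 and 170 CPM in combination kidneys, against 109, 122 and 133 CPM in vehicle kidneys (0.33 ± 0.07, adjusted p = 0.000571). Of 6 platelet markers in the tables, 1 was tested and it was not called, and the list summed to 3.37 to 7.03 CPM in combination kidneys and 3.32 to 8.38 CPM in vehicle kidneys, with Gp1bb and Ppbp at 0 in both groups. Distal nephron and collecting duct markers were higher for 5 of 9 tested (4 of 9 without the other-tissue libraries), with 5226 to 8128 CPM in combination kidneys and 5229.9 to 7349 CPM in vehicle kidneys, and their part was not tested.

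The ligand and partner lists moved with the combination in both directions. Of 22 tested ligands 13 were lower and 3 higher, among them Col1a1 (-1.19 ± 0.17, adjusted p = 2.00e-05), Spp1 (-0.86 ± 0.14, adjusted p = 9.67e-05), osteopontin, and Vcam1 (-0.91 ± 0.18, adjusted p = 0.000530), the ligand of Itga4. Of 20 tested basement membrane partners 6 were higher and 5 lower. Fras1 (1.03 ± 0.09, adjusted p = 2.03e-08), an epithelial basement membrane protein, and Nid1 (0.51 ± 0.08, adjusted p = 3.64e-05), the laminin-binding nidogen, were higher, and Sparc (-0.81 ± 0.10, adjusted p = 4.08e-06) was lower. Of 31 tested adhesion machinery genes 5 were higher and 9 lower, led by Lims2 (-1.01 ± 0.11, adjusted p = 3.39e-07), a partner of integrin-linked kinase. Without the other-tissue libraries the ligands were 12 lower and 1 higher, the basement membrane partners 5 higher and 3 lower, and the adhesion genes 4 higher and 6 lower. Fibroblast markers were lower for 6 of 7 tested (5 of 7 without those libraries), with 312 to 429 CPM in combination kidneys and 361 to 654 CPM in vehicle kidneys, and their part in the ligand counts was not tested.

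Set against empagliflozin alone, the combination changed 18 of 32 tested members in the kidney, 4 higher and 14 lower, where 31.7% of all 13992 tested genes were called, 17.0% higher and 14.8% lower. Itga2b had no overlap, with 27.2 to 43.4 CPM in combination kidneys, against 12.4, 16.4 and 24.8 CPM in empagliflozin kidneys (0.99 ± 0.08, adjusted p = 1.14e-08). Lama1 had no overlap either, with 10.0 CPM at most in combination kidneys, against 10.98, 13.4 and 28.2 CPM in empagliflozin kidneys (-1.08 ± 0.16, adjusted p = 4.13e-05). Itgax likewise had 9.43 CPM at most in combination kidneys, against 10.2, 14.9 and 27.7 CPM in empagliflozin kidneys (-0.92 ± 0.14, adjusted p = 4.14e-05).

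Itga6 had 67.5, 88.1 and 117 CPM in combination kidneys, against 97.4, 114 and 153 CPM in empagliflozin kidneys (-0.36 ± 0.06, adjusted p = 0.000133). Itgb1 had 233, 273 and 307 CPM in combination kidneys, against 284, 322 and 342 CPM in empagliflozin kidneys (-0.26 ± 0.05, adjusted p = 0.000576), and 7 of 10 combination kidneys lay below every empagliflozin kidney. Itga7 had 15.5, 19.6 and 26.2 CPM in combination kidneys, against 9.16, 12.7 and 21.4 CPM in empagliflozin kidneys (0.55 ± 0.11, adjusted p = 0.000718). Also called were Itgb8 (0.53) and Lamb2 (0.24), which were higher, and Itgb7 (-1.28), Itgal (-0.99), Itgam (-0.96), Itgae (-0.51), Itgb6 (-0.46), Itga5 (-0.44), Itga3 (-0.29), Lamc1 (-0.23) and Lamb1 (-0.22), which were lower, with adjusted p-values up to 0.0271. Without the other-tissue libraries 13 members were called, where 20.6% of all genes were, and Lamb1, Lamb2, Itgb6, Itgal and Itgae lost the call. Within plates, 13 of 34 members were called on plate 1 (27.6% of all genes) and 6 of 33 on plate 2 (8.03% of all genes). Without empagliflozin replicate 1, Itgal was at -0.65 and no member lay below -1.14, against -1.28 for Itgb7 with all libraries. Beside these calls, 12 of 13 tested macrophage, 6 of 9 lymphocyte, 6 of 7 fibroblast and 6 of 10 injured tubule markers were lower, and their part was not tested. This comparison and that with vehicle share the combination kidneys.

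**Figure D2:**
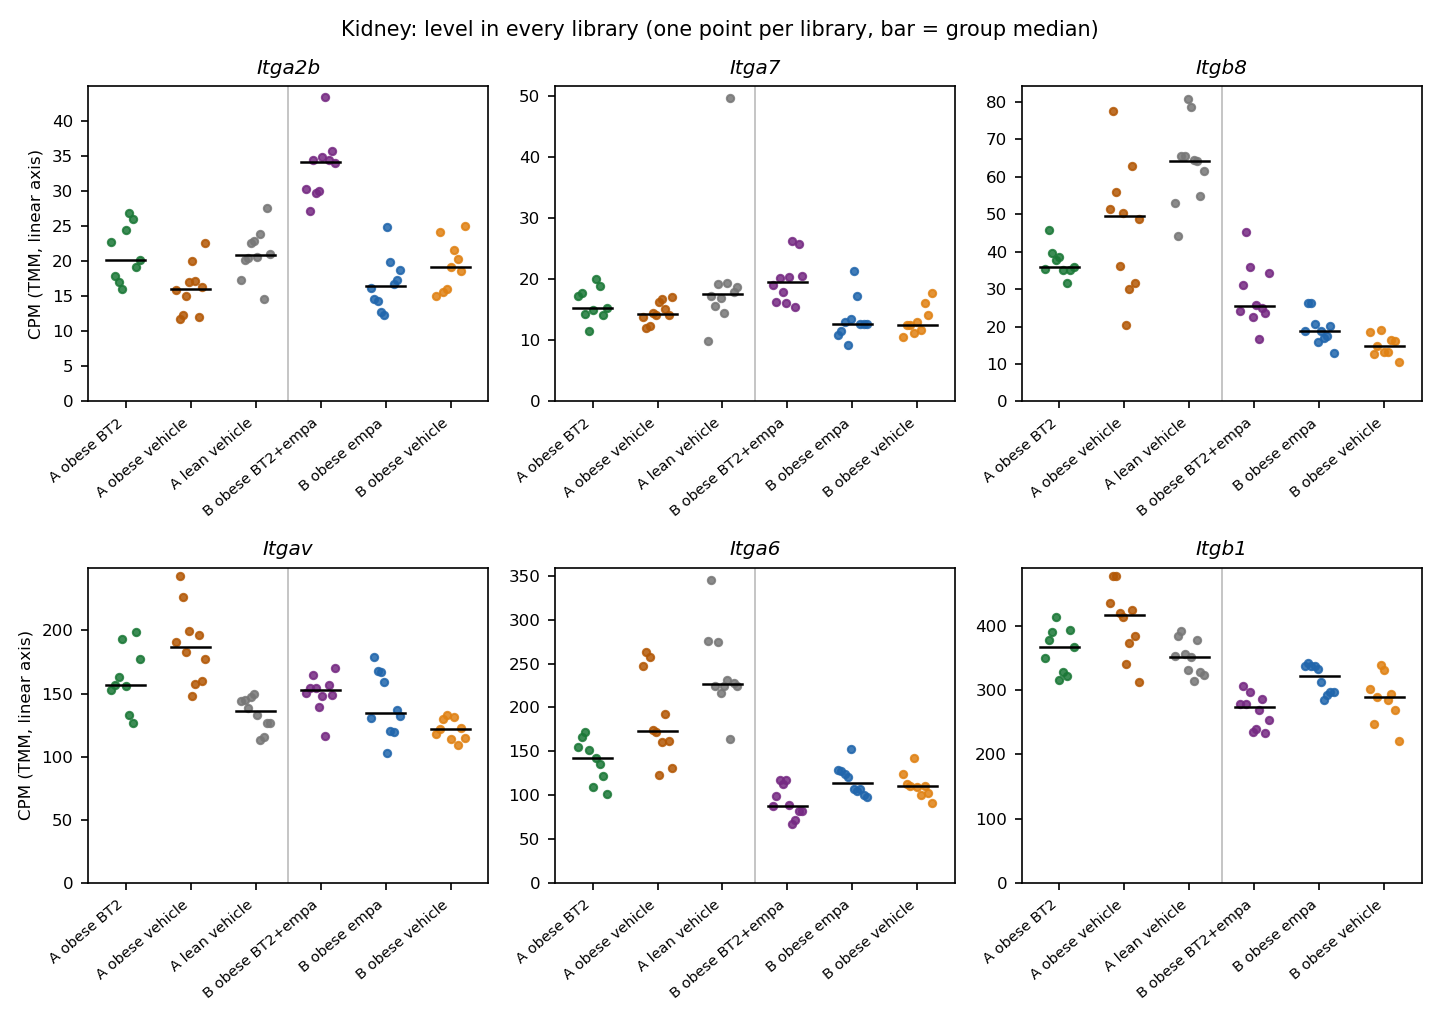
Level of 6 further integrin subunits in every kidney library, in CPM on a linear axis from 0, for study A and study B groups, with 1 point per library and a bar at the group median (BT2+empa is the combination, empa is empagliflozin). The 10 combination kidneys lie above every study B vehicle and empagliflozin kidney for Itga2b, from 27.2 CPM up, and the Itga7 point at 49.7 CPM is lean replicate 8.

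**Figure D3:**
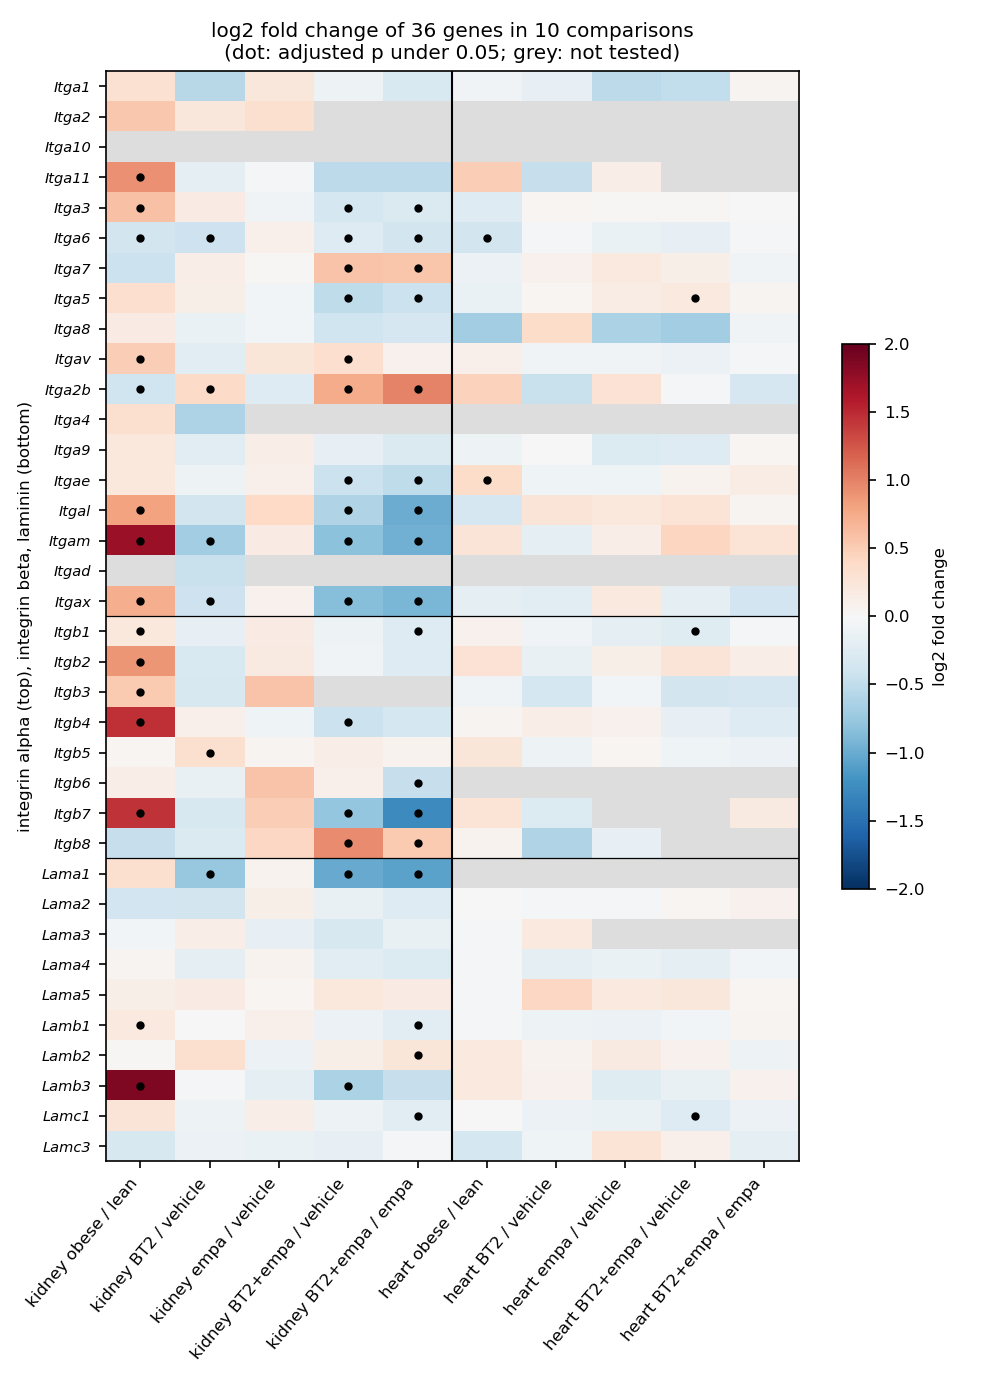
Log2 fold change of 36 members (rows) in 10 comparisons (columns, the group named first over the second), from blue (lower) to red (higher) on a scale that ends at -2 and 2, with a dot where adjusted p was under 0.05 and grey where the gene was not tested. Dots lie mostly in kidney columns, with 15 for obese over lean and 17 for the combination over empagliflozin, against 2 and 0 in the same heart columns. Calls over all genes were also more frequent in these kidney comparisons (32.0% and 31.7% of tested genes) than in these heart comparisons (5.36% and 0.0249%).

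In the heart, 2 of 31 tested members were called in obese vehicle over lean vehicle rats, 1 lower and 1 higher, where 5.36% of all 12694 tested genes were called. Itga6 had 51.5, 90.0 and 101 CPM in obese vehicle hearts, against 98.0, 114 and 131 CPM in lean hearts (log2 fold change -0.37 ± 0.08, adjusted p = 0.00436). In 8 of 10 obese hearts Itga6 lay below every lean heart, and without obese replicate 10, the lowest, it was at -0.31 (adjusted p = 0.000827). Itgae had 5.32, 7.38 and 9.34 CPM in obese vehicle hearts, against 4.06, 5.56 and 7.09 CPM in lean hearts (0.36 ± 0.10, adjusted p = 0.0426), and lost the call without replicate 10 (adjusted p = 0.0725), where 5.08% of all genes were called. It also lost the call with no low-count filter (adjusted p = 0.102) and with no plate term (adjusted p = 0.128). That library held 3010 CPM of atrial markers against a group median of 1061 CPM. Within plates, 3 of 32 members were called on plate 1 (6.81% of all genes) and 0 of 32 on plate 2 (0.383% of all genes).

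The cardiomyocyte anchoring genes did not pass the test between obese and lean hearts. Itga7 had 51.6, 103 and 162 CPM in obese vehicle hearts and 56.4, 120.1 and 170 CPM in lean hearts (-0.11 ± 0.18, adjusted p = 0.810). Lama2 had 96.7, 132 and 155 CPM in obese vehicle hearts and 94.2, 127 and 160 CPM in lean hearts (-0.01 ± 0.08, adjusted p = 0.961). Itgb1 had 156, 237 and 278 CPM in obese vehicle hearts and 154, 215 and 270 CPM in lean hearts (0.08 ± 0.07, adjusted p = 0.607). The groups overlapped over most of their range in all 3 genes. Itga5 had 55.7, 62.3 and 69.0 CPM in obese vehicle hearts and 59.0, 67.8 and 84.5 CPM in lean hearts (-0.13 ± 0.06, adjusted p = 0.299). Lamb1 had 109, 124 and 137 CPM in obese vehicle hearts and 111, 124 and 145 CPM in lean hearts (-0.02 ± 0.06, adjusted p = 0.913). Lamb3 and Itgam, called in kidney, did not pass in heart, with Lamb3 at 0.19 ± 0.12 and Itgam at 0.26 ± 0.24. Of 18 tested integrin ligands 5 were higher in obese hearts, led by Postn, periostin (2.04 ± 0.24, adjusted p = 5.17e-06), and 4 without obese replicate 10.

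BT2 alone and empagliflozin alone changed 0 members in the heart by edgeR. The heart log2 fold changes ran between -0.60 for Itgb8 and 0.41 for Lama5 with BT2, between -0.64 for Itga8 and 0.29 for Itga2b with empagliflozin, and between -0.38 for Itgax and 0.28 for Itgam for the combination over empagliflozin. For BT2 31 members were tested, 3 had an unadjusted p under 0.05, and 0.0558% of all 12545 genes were called, while DESeq2 called 1 member and 0.757% of all genes. Without the libraries that held transcripts of another tissue, 0 members were called with BT2 (0.0% of all genes), empagliflozin (0.0164%) or the combination over empagliflozin (0.0166%). For empagliflozin 29 were tested, 4 had an unadjusted p under 0.05, DESeq2 called 0, and 0.107% of all 12167 genes were called, although plate 1 alone called 5 of 28 members where 10.3% of all genes were called, and plate 2 alone called 0 of 29 (0.0% of all genes). The combination over empagliflozin changed 0 of 28 members, with 0 at an unadjusted p under 0.05, 0 by DESeq2, and 0.0249% of all 12049 genes called. On plate 1 it called 0 of 27 members (0.208% of all genes) and on plate 2 0 of 29 (0.0% of all genes).

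The combination changed 3 of 27 tested members in the heart relative to vehicle, where 5.13% of all 12117 tested genes were called. Lamc1, the gamma chain of most laminins, had 147, 164 and 185 CPM in combination hearts, against 158, 200.5 and 223 CPM in vehicle hearts (-0.25 ± 0.05, adjusted p = 0.00758). Itgb1 had 158, 212 and 269 CPM in combination hearts, against 184, 255 and 306 CPM in vehicle hearts (-0.24 ± 0.06, adjusted p = 0.0170). Itga5 was higher, with 64.4, 78.3 and 83.9 CPM in combination hearts, against 60.5, 64.8 and 74.8 CPM in vehicle hearts (0.20 ± 0.06, adjusted p = 0.0455). None of the 3 was called without the 7 libraries that held transcripts of another tissue (adjusted p = 0.0945, 0.159 and 0.130), where 0.910% of all genes were called. Their log2 fold changes were then -0.25, -0.21 and 0.23, and atrial markers had summed to 576 to 3516 CPM in combination hearts and 318 to 13026 CPM in vehicle hearts. With no plate term Lamc1 kept the call, and Itgb1 (adjusted p = 0.420) and Itga5 (adjusted p = 0.125) lost it. With all libraries, 6 of 9 cardiomyocyte markers were higher (5 of 9 without the other-tissue libraries), with 50039 to 66687 CPM in combination hearts and 43881 to 53985 CPM in vehicle hearts. Skeletal muscle markers were higher for 4 of 6 tested (0 of 6 without those libraries), with 897 to 4647 CPM in combination hearts and 985 to 1647 CPM in vehicle hearts. The part of both lists in the member values was not tested. Within plates, 1 of 27 members was called on plate 1 (0.643% of all genes) and 0 of 29 on plate 2 (0.0485% of all genes).

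**Figure D4:**
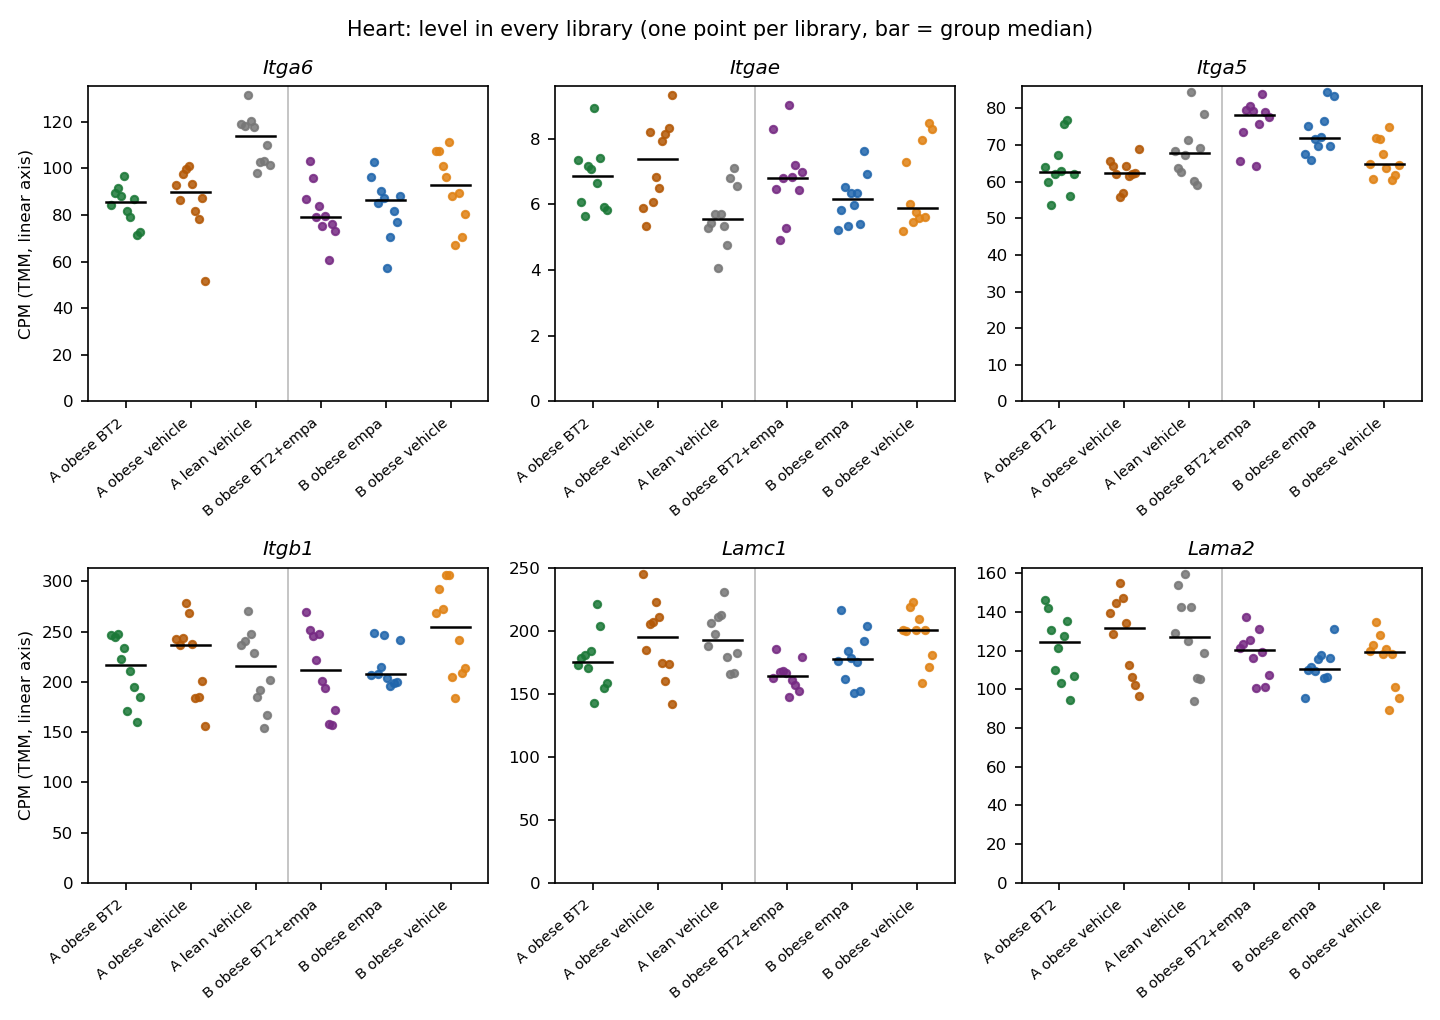
Level of 6 members in every heart library, in CPM on a linear axis from 0, for study A and study B groups, with 1 point per library and a bar at the group median (BT2+empa is the combination, empa is empagliflozin). Itga6 sits lower in obese vehicle than in lean hearts of study A, with medians of 90.0 and 114 CPM, while the Lama2 groups overlap throughout.

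Whether obesity acted alike in both organs was tested as the difference between the kidney and the heart fold change. That difference passed for 12 of 36 tested members, 11 with a larger value in kidney and 1 with a larger value in heart, where 13.7% of all 14926 tested genes passed, 7.32% and 6.38% in these directions. It was 1.71 ± 0.35 for Lamb3 (adjusted p = 0.000738), 1.46 ± 0.32 for Itgam (adjusted p = 0.00188) and 1.42 ± 0.29 for Itgb4 (adjusted p = 0.000667). Itga2b differed the other way, by -0.85 ± 0.22 (adjusted p = 0.00873). Itga6 was lower in both organs, and its difference was -0.0049 ± 0.14 (adjusted p = 0.992). Within plates, 12 of 36 members passed on plate 1 (13.3% of all genes) and 2 of 36 on plate 2 (0.572% of all genes), and 16 passed without the libraries that held transcripts of another tissue (16.2% of all genes). The series text gives 10 rats per group, so kidneys and hearts may come from the same rats. The fit treated them as independent samples, and its p-values do not account for shared rats.

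**Figure D5:**
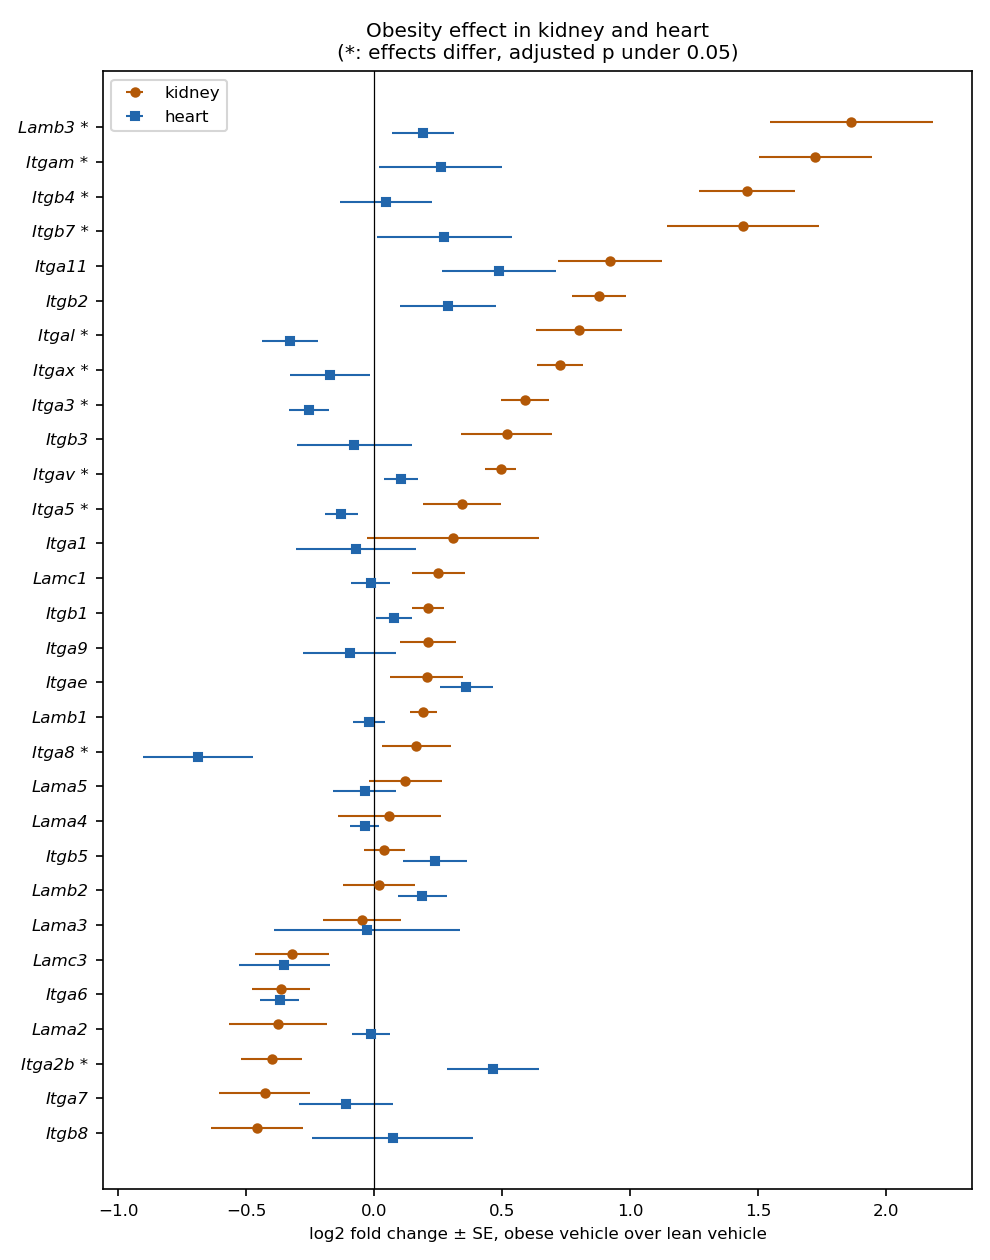
Log2 fold change of obese vehicle over lean vehicle, with its SE as a bar, for 30 members tested in both organs, kidney as circles and heart as squares, ordered by the kidney value. A star marks members whose kidney and heart effects differ at an adjusted p under 0.05, among them Lamb3, with 1.86 in kidney and 0.19 in heart.

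Between the lean organs, 29 of 35 tested members differed, 13 higher and 16 lower in kidney than in heart, where 81.0% of all 13952 tested genes differed, 41.1% higher and 39.9% lower. Without lean kidney replicate 8, 28 members differed (81.7% of all genes). Within plates, 27 of 35 members differed on plate 1 (81.0% of all genes) and 28 of 35 on plate 2 (68.9% of all genes). By library totals the median log2 ratio of all genes was 0.82, and it was -0.03 in the fit, whose TMM factors were computed over both organs, so directions were read from the fit. Of 28 called members with a level in both organs, 4 (Lamb1, Itgb1, Itgb4 and Itgal) had the opposite sign by library totals, and their direction depends on the scaling. Lama1 (7.29 ± 0.42) and Itgb6 (6.02 ± 0.22) were the farthest toward kidney, with Lama1 between 0 and 0.355 CPM in lean hearts. Itgb8 (3.70 ± 0.31), Lamc3 (3.06 ± 0.21) and Lama3 (2.25 ± 0.22) followed. Toward heart lay Itga7 (-3.70 ± 0.27), Itga5 (-3.63 ± 0.15), Lama4 (-3.58 ± 0.19), the vascular laminin alpha chain, Lamb2 (-2.70 ± 0.13), Lama2 (-2.52 ± 0.12) and Lamc1 (-2.24 ± 0.11), with adjusted p-values up to 6.05e-11. Lama5 (-0.07 ± 0.16, adjusted p = 0.674) did not pass. This fit too treated kidneys and hearts as independent samples, though they may come from the same rats.

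Within the studies and with all libraries, 11 tested members were called in no comparison of either organ, namely Itga1, Itga2, Itga4, Itga8, Itga9, Itgad, Lama2, Lama3, Lama4, Lama5 and Lamc3. Their log2 fold changes ranged between -0.70 for Itga8 (combination over vehicle hearts) and 0.54 for Itga2 (obese over lean kidneys). Itgad, tested in 1 within-study comparison, had group medians of 0.398 to 1.02 CPM, and in the authors' deposited table it was higher in obese over lean kidneys (log2 fold change 1.12, adjusted p = 0.00244). There Lama4 (0.31, adjusted p = 0.00451) and Itga4 (0.51, adjusted p = 0.0469) were also higher and Lamc3 (-0.38, adjusted p = 0.00315) lower. Lama4 and Lamc3 were called here too without lean replicate 8. For heart, the authors had Itga8 lower in obese over lean (-0.50, adjusted p = 0.0479) and Lama4 lower with BT2 (-0.16, adjusted p = 0.0303). The authors' fold changes can be far smaller than those fitted here, as for Itgb8 with BT2 in heart (-0.0057 against -0.60). The sizes of both are therefore not compared. In the authors' deposited tables, 24 members were under an adjusted p of 0.05 in obese over lean kidneys, 7 with BT2, 1 with empagliflozin and 16 with the combination, and 4, 1, 0 and 3 in the same heart comparisons. The members with an adjusted p there were 37, 37, 32 and 37 in kidney and 36, 36, 18 and 25 in heart. The share of all genes called in those tables is not given here, so these counts stand without a background. Every member called here in those comparisons was also called with the same sign in the authors' deposited tables, which hold 16 of 16, 6 of 6 and 16 of 16 in kidney and 2 of 2 and 3 of 3 in heart.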

How the data were processed

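Poly-A RNA libraries from 120 kidney and heart samples of rats were used as deposited. The authors deposited estimated counts per gene for each sequencing run, made, per the submitters' processing notes, with STAR 2.7.3a and Salmon 1.5.2 on build mRatBN7.2, with FastQC 0.11.9 and MultiQC 1.11 for quality. For their settings, no source used here gives values. Of the 245 count columns in the tables, 82 belong to no sample used here and were not read. The authors also deposited scaled counts (unit signal, counts divided by a factor per library) and comparison tables with a log2 fold change and an adjusted p-value, and the submitters' processing notes name DESeq2 1.34.0 among the tools.

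Repeat runs, present for 43 libraries, were summed and the estimated counts rounded to whole numbers. Each comparison was fitted on its own groups with edgeR 4.0.16 (limma 3.58.1, R 4.3.3), with filterByExpr, TMM factors, trended dispersion, plate as a covariate, the quasi-likelihood F test and Benjamini-Hochberg adjustment over all genes tested (adjusted p under 0.05). The SE is the fold change divided by the root of F. DESeq2 1.42.0 and the alternatives named at the end were also run, and the fits were tested on simulated data. P-values measure the spread between samples. The rule for members used gene symbols and no measured value, but members and lists were chosen with earlier results of these data known. Named members are those called, with values by library for the 6 smallest adjusted p in each comparison and for a few kidney and heart genes chosen by role. Counts cover all members, of which 1 is not reported here by name. Transcript lengths and protein sequences were not used here.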

Additional observations from a re-analysis of the deposited data

Results flagged for a closer look

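In 72 sets of 9 or 10 libraries of one member, 6 had 1 library far from the rest, where chance gives about 1 in 20. In lean kidneys this was replicate 8, which carried muscle transcripts, for Lamb2 (240 CPM, the others 123 to 179) and Itga8 (8.99 CPM, the others 14.2 to 19.7). In combination kidneys it was replicate 7 for Itga2b (43.4 CPM, the others 27.2 to 35.7). In empagliflozin kidneys it was replicate 5 for Lama1 (28.2 CPM, the others 10.98 to 19.5) and replicate 1, rich in lymphocyte markers, for Itgax (27.7 CPM, the others 10.2 to 18.4). In obese vehicle hearts of study A it was replicate 10 for Itga6 (51.5 CPM, the others 78.1 to 101). The part of these markers in the values was not tested.

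The obesity effect differed between kidney and heart for 12 members by the test of the difference itself. The kidney minus heart difference on the log2 scale was, among others, 1.71 for Lamb3, 1.46 for Itgam, 1.42 for Itgb4, 1.17 for Itgb7, 1.12 for Itgal, 0.92 for Itgax, 0.85 for Itga8, 0.84 for Itga3, 0.46 for Itga5 and 0.38 for Itgav. It was -0.85 for Itga2b. Itga8 had not passed in either organ alone, with 0.17 in kidney and -0.69 in heart.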

How the results depend on the processing

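No called fold change followed here changed sign under the alternatives listed below; by library totals, Lamb1, Itgb1, Itgb4 and Itgal had the opposite sign between the lean organs. The number of members called moved by over 1.5 times as follows. In obese over lean kidneys (16 called) plate 2 alone gave 8. With BT2 in kidney (6) it was 3 with no low-count filter, 3 with no plate term, 2 with the replicate block, 0 on plate 1 and 0 on plate 2. With empagliflozin in kidney (0) DESeq2 gave 3, and 1 was called without empagliflozin replicate 1, an alternative chosen after seeing the data. With the combination over vehicle in kidney (16) plate 1 gave 8 and plate 2 gave 10, and over empagliflozin (18) plate 2 gave 6. In obese over lean hearts (2) DESeq2 gave 5, no filter 1, no plate term 1, plate 2 0, and leaving out libraries with transcripts of another tissue 1. In heart, DESeq2 gave 1 with BT2 (0), and plate 1 gave 5 with empagliflozin (0). With the combination in heart (3) no plate term gave 1, the replicate block 1, plate 1 1, plate 2 0, and leaving out other-tissue libraries 0. For the organ difference (12) plate 2 gave 2. The cause was not tested, though a plate holds fewer samples. For fits that skipped filtering, left out plate or blocked by replicate, the all-gene share is not given here. The same holds for DESeq2 in obese over lean hearts. Member numbers from those fits therefore stand without a background. For them, a change over all genes cannot be told apart from one in the members.

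Of 85 called fold changes (all within the studies and for the organ difference, and the 6 farthest each way between lean organs), 85 kept their call with DESeq2, 84 with its size factors, 77 with no filter, 72 with no plate term, 58 on plate 1, 38 on plate 2, 78 with the replicate block and 74 without other-tissue libraries. Expression did not settle whether replicate numbers pair samples. In no comparison did every pair correlate above 0.1, and 0 to 3 libraries correlated best with their own number. The median correlation of pairs was highest for empagliflozin over vehicle hearts (0.153, with 6 of 10 pairs above 0.1). It was lowest for BT2 over vehicle hearts (-0.197). True pairs can also fall below 0.1, so pairing is not excluded. For a kidney and a heart, such correlations cannot show whether both came from the same rat. Depth limits the low members, such as Itga10, Itgad and Itgb7, the last with 0.109 to 2.34 CPM in lean kidneys other than replicate 8.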

Other observations

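Obese vehicle kidneys of both studies carried the same labels for strain, age and treatment, and their medians differed for the members given here, which were chosen after their values were seen. Lamb3 had a median of 44.8 CPM in study B and 12.0 CPM in study A, Lama2 10.7 and 39.9 CPM, Itgb8 14.8 and 49.5 CPM, and Itga8 8.09 and 17.3 CPM in the same order. Podocyte markers summed to a median of 160 CPM in study B and 428 CPM in study A. The study, the tissue piece and any other difference between both sets cannot be told apart, and no test was run across the studies.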
